A study of Mus musculus with 6 samples.

Results

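The genes described here are 33 genes of glucose metabolism and of the response to low oxygen, out of 24930 genes in a table of messenger RNA levels in mouse crypt epithelium. They were chosen by symbol, as enzymes and carriers of glycolysis, targets and regulators of the hypoxia-inducible factors, and enzymes of fructose use and gluconeogenesis, and all 33 were found in the table. Their levels were compared between 3 libraries from β-cateninGOF/+ crypts (called mutant below) and 3 libraries from control crypts. In the mutant group 1 of the 2 alleles of β-catenin was mutant, and cells were taken 4 days after that allele was induced. The labels give no driver of recombination, strain, age or sex for either group. Nor do they say whether control animals received the inducing agent, or whether each library is a separate animal: p-values thus cover only the spread among these 6 libraries, part of which may be technical.

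Glycolysis splits glucose into pyruvate in the cytosol, and dividing crypt cells are known to send much of that pyruvate to lactate. The hypoxia-inducible factors (HIF) are pairs of an oxygen-sensitive alpha subunit and a stable beta subunit. When oxygen is plentiful, prolyl hydroxylases mark the alpha subunit for destruction through VHL, and when it is scarce the factor binds short DNA motifs and raises genes of sugar uptake, glycolysis and blood vessel growth. Absorptive cells of the villus, into which crypt cells mature, also carry enzymes that handle fructose from the diet and that can make glucose.

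The unit of the deposited values is not stated. They behaved as a normalized abundance per transcript length, since low values multiplied by length fell near whole steps, and are here called units; levels set side by side between genes, and shares of one gene among several, rest on that reading. A single read on a transcript of 1000 bases was worth 0.0528 to 0.0845 units, with the fewest reads per unit in mutant replicate 3. All 7 markers of epithelium were found in every library and summed to 4611 to 5638 units in control libraries and 5241 to 7028 in mutant libraries. The β-catenin gene Ctnnb1 had 256 ± 15.1 units (mean ± SD) over the 3 control libraries and 261 ± 24.4 over the 3 mutant libraries, and this value does not separate the mutant from the normal allele. Mutant replicate 3 stood apart: it had the highest value of the 6 libraries for 18 of 32 members and the lowest for 6. In it, 20 enterocyte markers summed to 30596 units against 4980 to 16164 units in the other 5 libraries, and 5 stem cell markers summed to 110 units against 589 to 1389 units. The most abundant enterocyte markers weigh most in their sum, with Apoa1 at 7202 units in mutant replicate 3. All of the 20 except Sis, Lct and Cyp3a11 were highest in that library. Sis had 286 units there and 590 in control replicate 3. Summed stromal markers (14 genes) were 7.21 to 12.1 units in control libraries and 20.5 to 49.6 in mutant libraries, with Pdgfra at 0 in all 3 control libraries and none of the 14 at 0 in a mutant library. The 9 Paneth cell markers summed to 98241 to 368168 units in control libraries and 35780 to 158840 in mutant libraries, lowest in mutant replicate 3. Summed immune markers (11 genes) were 31.5 to 70.1 and 41.9 to 130 units, with the highest value in mutant replicate 3. Levels of Xist and Ddx3y marked control replicates 1 and 2 and mutant replicate 1 as male and the other 3 libraries as female. The part of these features in the results below was not tested, and in bulk RNA a change in the share of a cell type and a change of RNA per cell cannot be told apart.

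The comparison of mutant with control crypts asked which of these genes differed. Most glycolytic genes and the factor gene Hif1a stood somewhat higher in mutant libraries, the HIF targets went both ways, and no member passed the test. Differences are mutant minus control on the log2(value + 1) scale, tested with limma over the 11837 genes whose mean reached 1 unit, and they understate the change of low genes. Of 32 members tested, 0 passed at an adjusted p under 0.05 in either direction, while an unadjusted p under 0.05 was reached by 5 higher members and 1 lower one. Over all genes 0.0% were called higher and 0.0169% lower, and 4.72% and 3.59% had an unadjusted p under 0.05 in those directions. The lowest adjusted p of a member was 0.589 in limma, a value that many genes share because of the Benjamini-Hochberg adjustment. The median log2 difference of the 32 members was 0.26, with 23 above 0 and 9 below. Over all genes tested the median was -0.02, with 47.3% above 0 and 52.7% below. Without mutant replicate 3 the members' median was 0.14 and 22 differences were above 0. Of the 32 members, 5 then turned sign, 13 moved toward 0 by over 1.5 times, 3 moved away from 0 by as much and 11 moved by less.

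**Figure D1:**
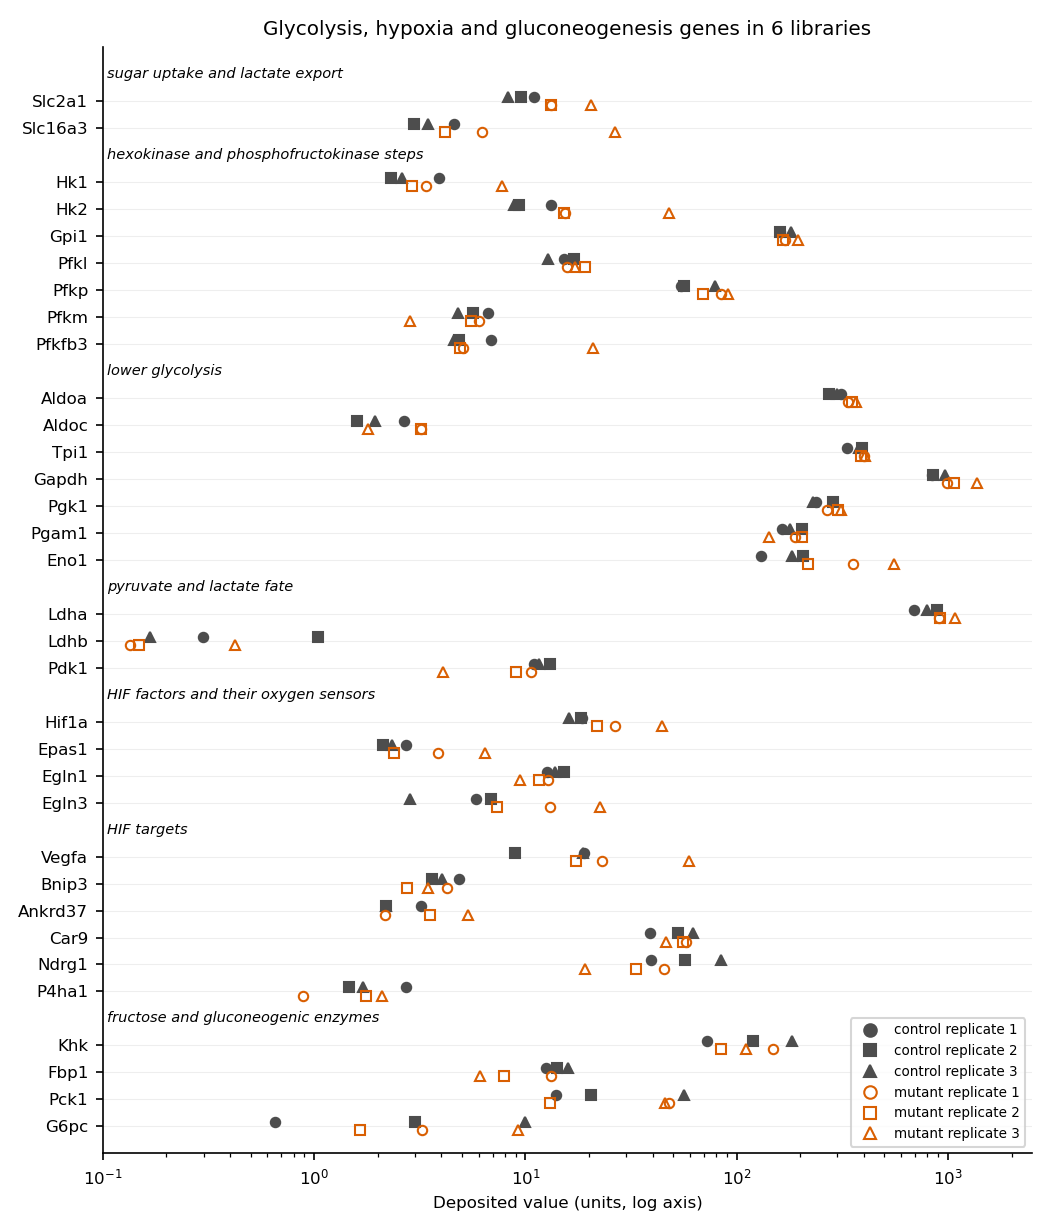
Deposited value in units (log axis) of each of the 33 members in each library, grouped by role, with filled grey symbols for the 3 control and open orange symbols for the 3 mutant libraries. Levels run from 0.135 units of Ldhb to 1368 units of Gapdh, and mutant replicate 3 (open triangle) lies at the right end for 18 members.

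For 8 of the 32 members tested every mutant library was above every control library, and for 1 every mutant library was below. Among all genes tested, 8.34% lay wholly above and 8.37% wholly below. The 8 higher members are Slc2a1, Hk2, Aldoa, Gapdh, Eno1, Ldha, Hif1a and Egln3, and the lower one is Pdk1. The nearest mutant and control libraries were 2.61% apart for Gapdh, 2.79% for Ldha, 3.32% for Pdk1, 4.85% for Eno1, 6.98% for Egln3 and 7.87% for Aldoa, as a share of the control value. The gaps were wider for Hk2, Hif1a and Slc2a1, at 14.4, 17.5 and 19.7%. Eno1 shares nearly all its sequence with a second gene, as described below.

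**Figure D2:**
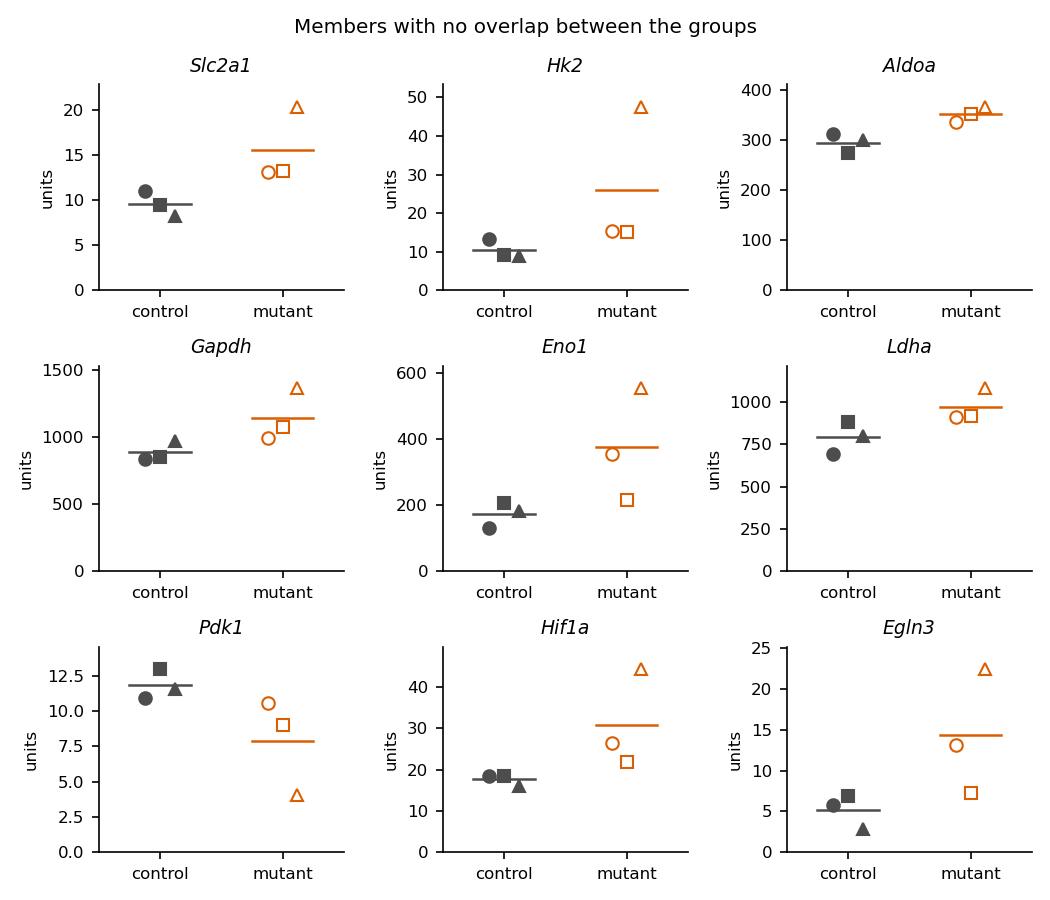
Units in each library (control in grey, mutant in orange; circle, square and triangle for replicates 1, 2 and 3; the line is the group mean) of the 9 members whose groups do not overlap. All 8 higher members have their highest value in mutant replicate 3, and Pdk1 has its lowest there.

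Slc2a1 encodes GLUT1, a widespread glucose carrier. It stood at 11.0, 9.50 and 8.29 units in control replicates 1 to 3 and at 13.2, 13.3 and 20.4 units in mutant replicates 1 to 3. All mutant libraries were above all control libraries, and 2 of them nearly coincided. The log2 difference was 0.63 ± 0.20 (SE; adjusted p = 0.589 in limma), and 0.43 without mutant replicate 3. Slc16a3, the lactate exporter MCT4, had 4.60, 2.96 and 3.45 units in control libraries and 6.25, 4.19 and 26.6 in mutant libraries. Mutant replicate 2 lay inside the control range and mutant replicate 3 far above it. The log2 difference of 1.13 ± 0.58 (adjusted p = 0.589 in limma) went to 0.41 without that library.

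Hexokinases trap glucose in the cell as glucose 6-phosphate. Hk2, the inducible form, had 13.3, 9.28 and 8.85 units in control libraries and 15.3, 15.2 and 47.6 in mutant libraries. The groups did not overlap, but mutant replicates 1 and 2 were close to control replicate 1. Its log2 difference was 1.05 ± 0.44 (adjusted p = 0.589 in limma) and 0.52 without mutant replicate 3. Hk1, the constitutive form, was lower throughout, at 2.31 to 3.89 units in control libraries and 2.91 to 7.73 in mutant libraries. Hk2 made up 77.3, 80.1 and 77.2% of the units of both genes in control and 81.9, 83.9 and 86.0% in mutant libraries, a share whose groups did not overlap and which was looked at with the values known.

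Phosphofructokinase commits sugar to glycolysis, and 3 genes encode its subunits. Pfkp, the platelet type, was the most abundant at 63.3 ± 13.7 units in control libraries and 81.5 ± 11.1 in mutant libraries (n = 3 each), with overlapping groups and a log2 difference of 0.37 ± 0.20. Pfkl, the liver type, had 15.05 ± 2.15 and 17.4 ± 1.72 units. Pfkm, the muscle type, had 5.71 ± 0.917 and 4.81 ± 1.71 units, with its lowest value, 2.85 units, in mutant replicate 3. Pfkp thus held 71.2 to 82.0% of the units of the 3 subunit genes in every library. Pfkfb3, which makes the activator of phosphofructokinase, had 6.89, 4.84 and 4.58 units in control libraries and 5.05, 4.88 and 20.9 in mutant libraries. Its higher group mean came from mutant replicate 3 alone, and the log2 difference went from 0.53 to -0.093 without it. Gpi1, the isomerase between the hexokinase and phosphofructokinase steps, was level at 167 ± 11.9 and 177 ± 16.4 units (log2 difference of 0.08 ± 0.15).

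Apart from Aldoc, the enzymes of lower glycolysis were among the most abundant members. Gapdh, which makes the first high-energy intermediate, had 838, 852 and 967 units in control libraries and 992, 1073 and 1368 in mutant libraries. Aldoa, the aldolase of most tissues, had 312, 273 and 299 units in control libraries and 336, 352 and 366 in mutant libraries. In neither gene did the groups overlap, and the differences were small: 0.36 ± 0.22 for Gapdh and 0.25 ± 0.16 for Aldoa on the log2 scale (adjusted p = 0.600 for each in limma). Without mutant replicate 3 they were 0.22 for both. Tpi1, the triose isomerase, had 368 ± 31.6 and 398 ± 9.44 units. Pgk1, a kinase that makes ATP, had 251 ± 30.9 and 294 ± 22.1 units. Pgam1, the mutase that follows it, had 182 ± 20.1 and 178 ± 32.2 units, and these 3 genes overlapped between groups. Aldoc, the aldolase of brain, was nearly absent beside Aldoa, with 1.60 to 3.22 units over all libraries. The 15 glycolytic enzymes tested had a median log2 difference of 0.27, with 13 above 0 and 2 below, and the median was 0.21 without mutant replicate 3.

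Eno1, the enolase of most tissues, had the second largest difference among the glycolytic enzymes, after Hk2. It stood at 130, 207 and 184 units in control libraries and 355, 217 and 555 in mutant libraries, a log2 difference of 1.03 ± 0.36 (adjusted p = 0.589 in limma). The value is uncertain, because Eno1 matches the transcript of Eno1b, a protein-coding copy listed separately in the table, at 99.5% of 1736 aligned bases. Eno1b ran the other way, at 153, 73.6 and 195 units in control libraries and 1.85, 81.8 and 2.17 in mutant libraries. It thus made up 54.0, 26.2 and 51.5% of the enolase pair in control replicates 1 to 3, and 0.517, 27.4 and 0.390% in mutant replicates 1 to 3. The 2 libraries with an intermediate share, control replicate 2 and mutant replicate 2, also had the closest Eno1 levels. The sum of both genes was 283, 280 and 379 units in control libraries and 357, 299 and 557 in mutant libraries, and these ranges overlap. The log2 difference of the sum, a comparison added after seeing the data, was 0.33 ± 0.28 (adjusted p = 0.655 in limma) and 0.07 ± 0.22 without mutant replicate 3. How reads were divided between the 2 genes was not tested. Of the 33 members, 9 have near copies in the reference annotation, and besides Eno1 only Gapdh has copies among the symbols of the table, at 0.207% of its own level.

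**Figure D3:**
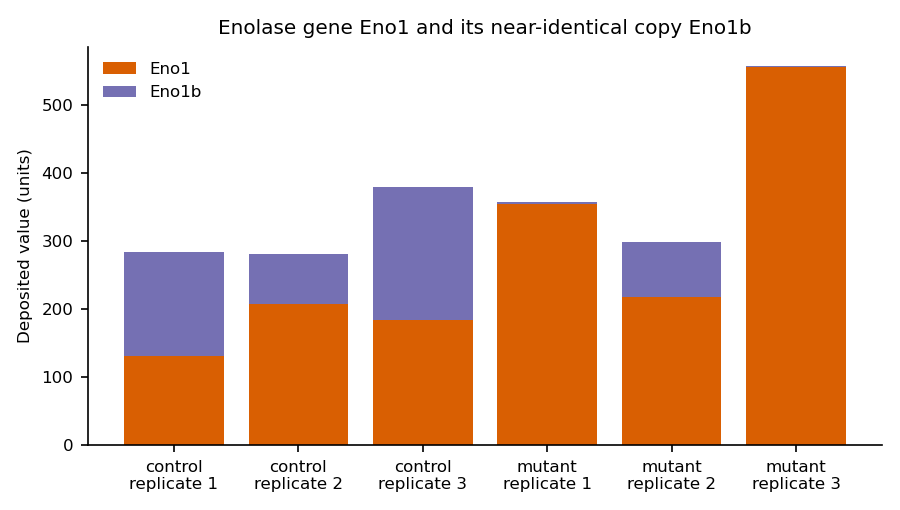
Units of Eno1 (orange) and of its near-identical copy Eno1b (violet), stacked, in each of the 6 libraries. Eno1b is a thin line in mutant replicates 1 and 3 (1.85 and 2.17 units) and the stacked height overlaps between control (280 to 379 units) and mutant (299 to 557 units).

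Pyruvate can be turned into lactate or burnt in mitochondria. Ldha, the lactate dehydrogenase subunit that favours lactate, had 690, 884 and 796 units in control libraries and 909, 918 and 1084 in mutant libraries. The lowest mutant value was just above the highest control value, and the log2 difference was 0.30 ± 0.21 (adjusted p = 0.618 in limma). Ldhb, the subunit of oxidative tissues, was low in all libraries and near the limit of detection in some, at 0.168 to 1.05 units in control libraries and 0.135 to 0.423 in mutant libraries. It was the 1 member with a mean too low to be tested, and Ldha made up 99.9% of the units of both genes on average in control libraries. Pdk1, a kinase that shuts the entry of pyruvate into mitochondria and is a known HIF target, was the member lower in all mutant libraries. It had 10.9, 13.0 and 11.5 units in control libraries and 10.6, 8.99 and 4.07 in mutant libraries. Mutant replicate 1 was just below the control range and mutant replicate 3 at less than any other library, and the log2 difference of -0.61 ± 0.31 (adjusted p = 0.589 in limma) went to -0.25 without that library.

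The gene of the oxygen-regulated factor itself was among the higher members. Hif1a had 18.5, 18.4 and 16.1 units in control libraries and 26.5, 21.7 and 44.4 in mutant libraries. All mutant libraries were higher and the control libraries lay close together, with a log2 difference of 0.71 ± 0.26 (adjusted p = 0.589 in limma) and 0.42 without mutant replicate 3. Epas1, which encodes the related subunit HIF-2α and is high in blood vessel cells, had 2.40 ± 0.312 units in control libraries and 4.21 ± 2.04 in mutant libraries, with overlapping groups. Its highest value, 6.41 units, was in mutant replicate 3, and the log2 difference went from 0.55 to 0.26 without that library. Summed markers of endothelium (8 genes) were 2.50 to 4.29 units in control libraries and 1.87 to 4.18 in mutant libraries. Esam made up the largest part of that sum in every library, at 1.48 to 3.48 units. Pecam1 had 1.54 units in mutant replicate 3 and 0.152 to 0.574 in the other 5 libraries, Kdr and Cdh5 were also highest in mutant replicate 3 (0.0940 and 0.0808 units), and Cldn5 was at 0 in 2 control libraries and in all mutant libraries. The part of these cells in the Epas1 value was not tested. Hif1a held 87.1 to 90.1% of the units of the 2 factor genes in every library. These values are RNA, and HIF activity is set mainly at the protein.

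Egln3 had the largest log2 difference of all members. It encodes PHD3, a prolyl hydroxylase that marks HIF for destruction and is itself a HIF target. It had 5.84, 6.84 and 2.83 units in control libraries and 13.1, 7.32 and 22.5 in mutant libraries. Mutant replicate 2 was only just above control replicate 2. The log2 difference was 1.25 ± 0.42 (adjusted p = 0.589 in limma) and 0.88 without mutant replicate 3. Egln1, which encodes PHD2, the main oxygen sensor, stood the other way, at 12.6, 15.2 and 13.7 units in control libraries and 12.8, 11.6 and 9.40 in mutant libraries, with overlapping groups and a log2 difference of -0.28 ± 0.16 (adjusted p = 0.590 in limma), which went to -0.17 without mutant replicate 3.

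The other HIF targets did not move together. Of 6 genes, 3 had a log2 difference above 0 and 3 below, 0 passed the test in either direction, and none had groups free of overlap. Their median log2 difference was -0.07, beside -0.02 over all genes tested. Vegfa, a growth factor for blood vessels, had 19.0, 8.96 and 18.7 units in control libraries and 23.0, 17.4 and 59.4 in mutant libraries. Its log2 difference of 0.92 ± 0.48 (adjusted p = 0.589 in limma) went to 0.41 without mutant replicate 3. Ndrg1, a stress response gene that is also high in maturing epithelial cells, was at the other end, with 39.3, 57.2 and 83.8 units in control libraries and 45.2, 33.2 and 19.1 in mutant libraries. The groups overlapped through mutant replicate 1 and control replicate 1, and the log2 difference was -0.88 ± 0.37 (adjusted p = 0.589 in limma), -0.55 without mutant replicate 3 and -0.27 with array weights, which give less weight to libraries that vary more. Thus in mutant replicate 3 Vegfa had its highest and Ndrg1 its lowest value of the 6 libraries.

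Car9, a carbonic anhydrase of the cell surface and a common marker of hypoxia, was level at 51.3 ± 11.5 units in control libraries and 53.2 ± 5.95 in mutant libraries (log2 difference of 0.07 ± 0.20). Bnip3, which directs mitochondria to autophagy, had 4.16 ± 0.632 and 3.49 ± 0.756 units. P4ha1, a collagen prolyl hydroxylase subunit, had 1.96 ± 0.679 and 1.58 ± 0.624 units. The difference between group means was below both SDs for Car9 and P4ha1 and between the 2 SDs for Bnip3. Ankrd37, a small ankyrin repeat gene, had 2.53 ± 0.585 and 3.68 ± 1.58 units, with its highest value in mutant replicate 3.

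**Figure D4:**
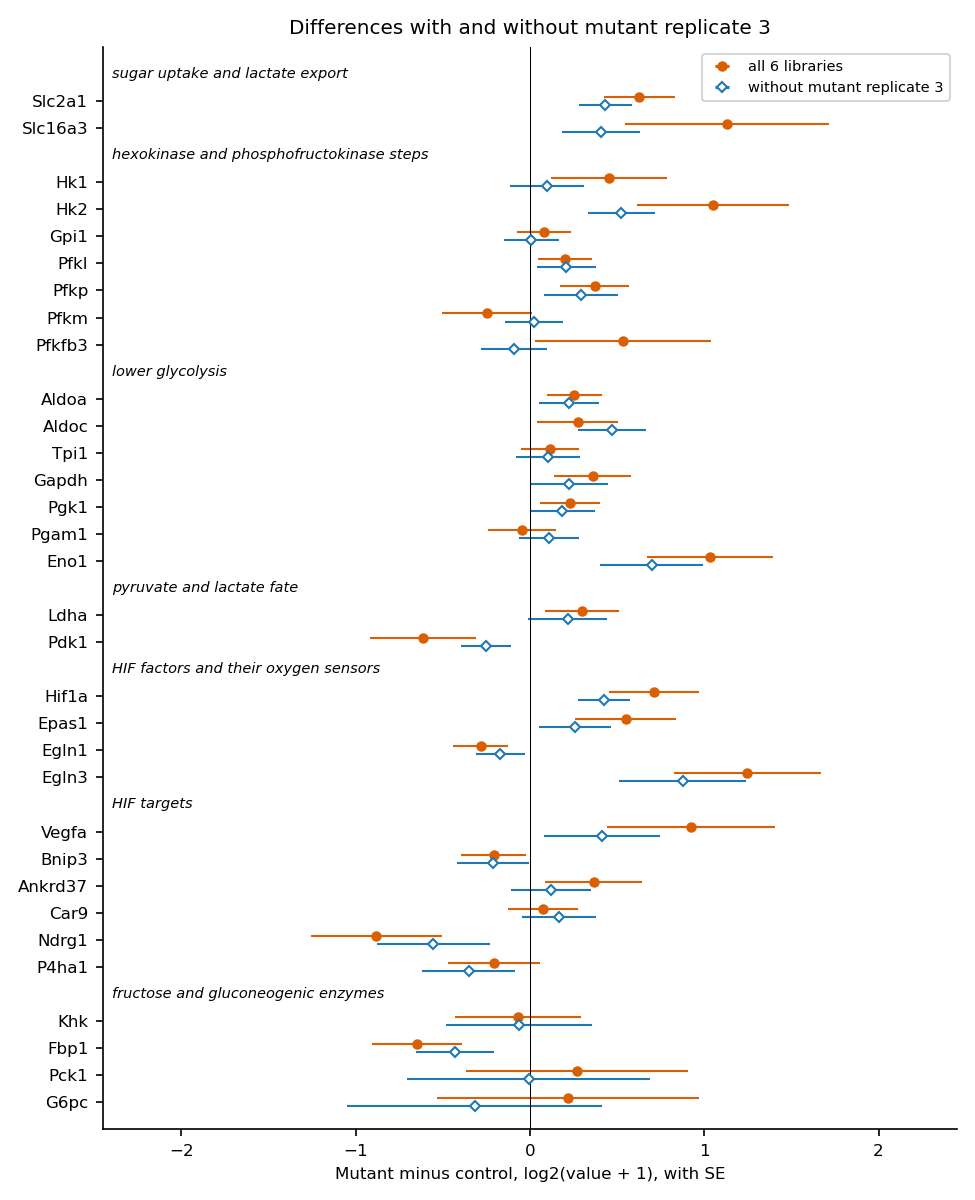
Mutant minus control difference on the log2(value + 1) scale with its SE for the 32 members tested, from all 6 libraries (orange circles) and without mutant replicate 3 (blue diamonds). Differences of Slc16a3, Hk2, Pfkfb3 and Vegfa shrink without that library. Those of Egln3 and Eno1 also shrink but stay farthest to the right, at 0.88 and 0.70. For Eno1 and Eno1b summed, which is not drawn, the difference without that library was 0.07.

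HIF binds the letters ACGTG or GCGTG, so the bases before the transcription start were searched for both on either strand, where the other strand reads CACGT or CACGC. Starts from RefSeq (GRCm38.p6) were found for 31 of the 33 members. Windows of 250 bases before the most upstream start are shown for 5 of the members whose groups did not overlap. That of the gluconeogenic Fbp1 is shown beside them, and capitals mark the motifs. These genes were chosen by name and do not stand for all members. Aldoa, whose groups did not overlap either, holds 0 motifs before its most upstream start and 1 before each of its other starts. Khk, of the same role as Fbp1, holds 1 on each strand.
Hk2 (chr6:82774455-82774704, minus strand): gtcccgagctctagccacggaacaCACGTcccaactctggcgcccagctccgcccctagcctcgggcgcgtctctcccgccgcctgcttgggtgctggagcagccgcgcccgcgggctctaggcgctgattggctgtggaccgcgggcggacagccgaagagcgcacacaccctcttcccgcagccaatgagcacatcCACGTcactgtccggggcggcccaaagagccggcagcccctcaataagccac
Ldha (chr7:46845554-46845803, plus strand): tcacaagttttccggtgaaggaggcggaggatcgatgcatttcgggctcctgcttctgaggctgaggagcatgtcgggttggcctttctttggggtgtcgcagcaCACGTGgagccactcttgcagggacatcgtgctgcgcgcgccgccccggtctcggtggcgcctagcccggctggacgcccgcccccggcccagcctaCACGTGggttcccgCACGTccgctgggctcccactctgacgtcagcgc
Hif1a (chr12:73907617-73907866, plus strand): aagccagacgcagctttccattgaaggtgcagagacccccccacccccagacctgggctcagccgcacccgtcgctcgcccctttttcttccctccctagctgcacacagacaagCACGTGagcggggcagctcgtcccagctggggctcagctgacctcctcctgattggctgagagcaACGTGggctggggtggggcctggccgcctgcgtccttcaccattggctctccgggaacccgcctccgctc
Egln3 (chr12:54203875-54204124, minus strand): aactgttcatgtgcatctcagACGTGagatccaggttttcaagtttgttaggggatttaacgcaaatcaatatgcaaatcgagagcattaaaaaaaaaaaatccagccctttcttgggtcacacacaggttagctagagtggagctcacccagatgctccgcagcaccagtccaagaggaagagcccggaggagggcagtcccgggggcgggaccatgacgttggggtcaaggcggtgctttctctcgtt
Pdk1 (chr2:71872974-71873223, plus strand): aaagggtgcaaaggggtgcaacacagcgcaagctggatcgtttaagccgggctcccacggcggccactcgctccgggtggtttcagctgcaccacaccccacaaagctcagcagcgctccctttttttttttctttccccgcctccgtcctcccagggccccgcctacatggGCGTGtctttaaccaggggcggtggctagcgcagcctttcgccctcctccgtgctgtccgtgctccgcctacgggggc
Fbp1 (chr13:62888283-62888532, minus strand): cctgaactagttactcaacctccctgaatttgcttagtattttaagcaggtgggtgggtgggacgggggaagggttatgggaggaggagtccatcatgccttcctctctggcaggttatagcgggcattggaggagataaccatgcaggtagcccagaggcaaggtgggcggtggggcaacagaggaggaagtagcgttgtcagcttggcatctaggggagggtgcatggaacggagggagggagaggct
Ldha holds the palindrome CACGTG at 2 places, where motifs of both strands overlap, and a further CACGT. Hif1a holds the palindrome as well. Egln3 and Pdk1, whose levels stood in opposite directions, hold 1 motif each, and Fbp1 none.

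Of the 31 members matched, 26 (83.9%) had the motif before at least 1 start, beside 41.5% of all 27025 genes with a start in the same table. By single starts the shares were 77.3% of 44 and 38.6% of 32851. The members were chosen in part as HIF targets and as glycolytic genes that HIF raises. The list was thus not independent of the motif, and its higher share is no result of these data. Windows of members were richer in G and C, with a median of 60% against 52.4% over all starts, and base composition was not matched. The 5 members with no motif in any window were Gpi1, Tpi1, Fbp1, Pck1 and G6pc. A match of 5 letters is a description of the sequence and not a binding site.

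Among 4 enzymes of fructose use and gluconeogenesis, Khk, Pck1 and G6pc differed more between libraries of a group than between groups. Khk, ketohexokinase, which starts the use of fructose, had 72.7, 119 and 182 units in control libraries and 148, 84.0 and 111 in mutant libraries. Pck1, which makes phosphoenolpyruvate for gluconeogenesis, had 14.0, 20.5 and 56.3 units in control libraries and 48.0, 13.1 and 46.0 in mutant libraries. G6pc, the phosphatase that releases free glucose, had 0.656, 3.00 and 9.95 units in control libraries and 3.23, 1.65 and 9.22 in mutant libraries. All 3 had their highest value in control replicate 3, and their log2 differences were -0.07 ± 0.36, 0.27 ± 0.64 and 0.22 ± 0.75 (adjusted p = 0.953, 0.875 and 0.920 in limma). The sum of 20 enterocyte markers was 4980, 6819 and 13060 units in control libraries and 16164, 7384 and 30596 in mutant libraries. For Pck1 and G6pc as for that sum, control replicate 3 and mutant replicate 3 were on the high side and control replicate 1 and mutant replicate 2 on the low side. Mutant replicate 1, whose sum exceeded that of control replicate 3, was also high in Pck1 (48.0 units) but not in G6pc (3.23 units). The part of this incomplete likeness in the result was not tested.

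Fbp1 encodes a fructose bisphosphatase, an enzyme that opposes phosphofructokinase. Like the other 3 it had its highest value in control replicate 3, but unlike them it had its lowest in mutant replicate 3. It had 12.5, 14.2 and 15.9 units in control libraries and 13.2, 7.90 and 6.12 in mutant libraries. Mutant replicate 1 lay within the control range and the other 2 mutant libraries well below it. The log2 difference was -0.65 ± 0.26 (adjusted p = 0.589 in limma), and it was the 1 member lower at an unadjusted p under 0.05 (unadjusted p = 0.0418 in limma). The difference went to -0.43 without mutant replicate 3 and to -0.14 with array weights. Its lowest value fell in mutant replicate 3, the library with the highest sum of enterocyte markers. Over the 4 enzymes the median log2 difference was 0.08, and -0.19 without mutant replicate 3, where all 4 were below 0. Fbp2, a second fructose bisphosphatase gene from the wider lists, was more abundant than Fbp1 in every library. It had 186 ± 40.6 units in control libraries and 171 ± 26.4 in mutant libraries, with overlapping groups. Its log2 difference was -0.11 ± 0.22 (adjusted p = 0.855 in limma), so the lower Fbp1 values do not describe both genes.

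Within library sex, Khk, Pck1 and G6pc had differences of opposite sign, and Fbp1 and Ndrg1 were below 0 in both. Between the male libraries (2 control, 1 mutant) the log2 difference was 0.66 for Khk, 1.45 for Pck1, 0.72 for G6pc and -0.01 for Fbp1. Between the female libraries (1 control, 2 mutant) it was -0.91, -1.15, -1.07 and -1.09 in that order. Ndrg1 gave -0.07 and -1.69, Pfkfb3 -0.17 and 1.02, and Car9 0.34 and -0.28 (male, then female). The interaction of sex and group was called for 0 of 11837 genes in limma, and 254 (2.15%) had an unadjusted p under 0.05. It rests on 1 male mutant and 1 female control library, and no difference between the sexes was shown.

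**Figure D5:**
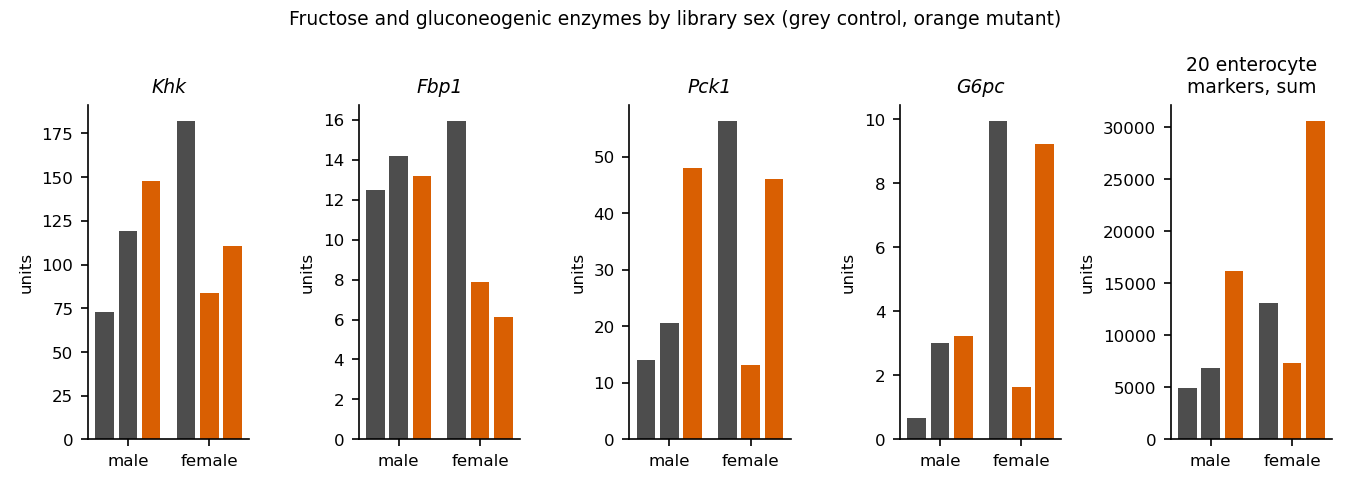
Units of Khk, Fbp1, Pck1 and G6pc and the sum of 20 enterocyte markers in each library, with control bars in grey and mutant bars in orange, male libraries at left (control replicates 1 and 2, mutant replicate 1) and female libraries at right (control replicate 3, mutant replicates 2 and 3). Pck1 and G6pc are high in the female control library, as in mutant replicate 3, and Pck1 also in mutant replicate 1. Fbp1 is lowest in mutant replicate 3.

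Other genes of the same pathways were read from lists of 137 genes, chosen by function. Of 111 tested, 0 were called higher and 0 lower, an unadjusted p under 0.05 was reached by 5 higher and 3 lower genes, and the median log2 difference was 0.09. All 3 mutant values lay above the control values for 10 of them and below for 8, which is 9.01% and 7.21%, near the shares over all genes. Some of the 111, such as Arnt2, reached a mean of 1 unit only through mutant replicate 3, and 107 were tested without that library.

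Among 17 other glycolysis genes tested, 13 were above 0 with a median of 0.18. Of the 17, 3 (17.6%) lay wholly above the control libraries and 1 (5.88%) wholly below, beside 8.34% and 8.37% of all genes. Pkm, the pyruvate kinase of dividing cells, had 303 ± 60.2 units in control libraries and 416 ± 123 in mutant libraries, and Pklr, the form of liver and gut, had 69.1 ± 12.8 and 128 ± 71.1 units. Pklr thus made up 16.6 to 20.3% of both in control and 17.8 to 27.2% in mutant libraries. Hkdc1, a further hexokinase gene, exceeded Hk1 and Hk2 in every library, with 100 ± 38.5 and 104 ± 30.4 units.

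Of 14 other carriers of sugar, lactate and pyruvate tested, 10 were above 0 and 4 below, with a median of 0.22, and none had groups free of overlap. Slc5a1, the sodium-driven glucose carrier of the brush border, had 230, 320 and 586 units in control libraries and 615, 248 and 742 in mutant libraries. Slc2a2, the basal carrier GLUT2, had 17.0, 30.4 and 64.6 units in control libraries and 70.5, 22.9 and 77.5 in mutant libraries. Slc2a5, the fructose carrier GLUT5, had 18.8, 18.7 and 39.9 units in control libraries and 41.1, 14.9 and 71.7 in mutant libraries. All 3 were highest in mutant replicate 3, as was the sum of enterocyte markers, of which Slc5a1 is itself a member. Slc16a1, the lactate carrier MCT1, had 31.7 ± 4.94 and 35.0 ± 6.15 units. Its partner protein gene Bsg had 382 ± 46.7 and 379 ± 10.5 units, and the mitochondrial pyruvate carrier gene Mpc1 had 81.8 ± 12.3 and 83.0 ± 13.2 units.

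Of 10 genes of pyruvate dehydrogenase and its kinases and phosphatases, 7 were below 0, with a median of -0.06, and without mutant replicate 3 the median was 0.02. Wholly below the control libraries lay 1 (10%) and wholly above 0, beside 8.37% and 8.34% of all genes. Pdk2 had 28.1 ± 3.03 units in control libraries and 24.0 ± 4.47 in mutant libraries, and Pdk4 1.39 ± 0.959 and 1.22 ± 0.440 units. Pdk2 was therefore the more abundant of the 2 and exceeded Pdk1 in every library.

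Of 13 other regulators of HIF tested, 6 were above 0 and 7 below, with a median of -0.00306, and 3 (23.1%) lay wholly above the control libraries, beside 8.34% of all genes. Elob, an adaptor of the VHL complex, had 189, 193 and 186 units in control libraries and 223, 289 and 294 in mutant libraries, a log2 difference of 0.49 ± 0.17 (unadjusted p = 0.0257, adjusted p = 0.589 in limma). Arnt2, a relative of Arnt and also 1 of these 3, had 0.672, 0.484 and 0.252 units in control libraries and 0.802, 0.805 and 3.72 in mutant libraries. Its mean reached 1 unit only through mutant replicate 3, and 12 of these regulators were tested without that library. The count of 3 is thus in part set by the filter. Arntl, a factor of the circadian clock, had 10.9 ± 4.34 and 7.37 ± 1.32 units, with overlapping groups. Arnt, the stable HIF subunit, had 12.9 ± 0.337 units in control libraries and 12.9 ± 1.86 in mutant libraries, and Vhl, which marks HIF for destruction, had 7.15 ± 0.612 and 7.12 ± 0.245 units. Hif1an, an inhibitor of HIF activity, had 16.6 ± 1.31 and 14.0 ± 1.68 units. Egln2, the third prolyl hydroxylase gene, was also higher in all mutant libraries, at 26.7 ± 0.724 and 30.8 ± 1.61 units, with a log2 difference of 0.20 ± 0.12 (adjusted p = 0.594 in limma). The 23 further HIF targets tested had 14 differences above 0 and 9 below, with a median of 0.16. Without mutant replicate 3 only 20 of them were tested, with a median of 0.0047, so the 2 medians are not over the same genes. Those that dropped out, Adm among them, reached a mean of 1 unit only through that library, and all were above 0 with it. Of them, 1 (4.35%) lay wholly above the control libraries and 4 (17.4%) wholly below, beside 8.34% and 8.37% of all genes. Bnip3l, a relative of Bnip3, was lower in all mutant libraries, at 21.7 ± 3.20 and 18.4 ± 0.486 units. Adm, adrenomedullin, had 0.693 ± 0.379 and 1.60 ± 1.35 units, and Ddit4, an inhibitor of growth signalling, had 31.1 ± 12.4 and 27.4 ± 9.89 units.

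The wider fructose and gluconeogenic genes, 20 tested, had a median of 0.10. Of the 20, 2 (10%) lay wholly above the control libraries and 0 wholly below, beside 8.34% and 8.37% of all genes. Tkfc, a kinase that acts after Khk in fructose use, had 113 ± 45.8 units in control libraries and 120 ± 21.8 in mutant libraries. Slc37a4, the carrier that feeds glucose 6-phosphatase, had 33.6 ± 12.1 and 32.4 ± 5.10 units, and the mitochondrial Pck2 had 16.1 ± 3.98 and 12.1 ± 5.06 units. Mlxipl, a sugar-sensing transcription factor, had 89.5 ± 37.8 and 63.6 ± 10.8 units. Myc, a WNT target known to drive glycolytic genes, had 37.2, 38.3 and 20.8 units in control libraries and 25.5, 41.5 and 42.6 in mutant libraries, with overlapping groups and a log2 difference of 0.19 ± 0.30 (adjusted p = 0.803 in limma).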

How the data were processed

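RNA of crypt epithelium was purified with poly-T beads and cDNA from random primers was sequenced (Illumina), per the labels' protocols, giving 3 mutant and 3 control libraries. The deposited values are a signal made by the authors, with no unit stated, and were read as normalized abundance per transcript length. Kallisto 0.46.1, DESeq2 1.40.1 and mm9 are named, with no role or order, per the submitters' processing notes; the annotation is not given in the sources used here. Each column was assigned by its group name and number, and 0 value columns lacked a sample. Columns named for a heterozygous exon change were assigned to the mutant group, the one other than control.

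Of the values above 0, 0.0% are whole numbers. Low values multiplied by transcript length fell near whole steps (86.1 to 88.6% of those under 3.5 steps within 0.2 of a whole step), which gave the units of a read. Absolute depth is unknown, so no counting interval is given. Library totals ranged from 645225 to 1268771 units.

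Values were taken as log2(value + 1). The 11837 genes whose mean reached 1 unit were tested with limma 3.58.1 in R 4.3.3 (mean-variance trend, Benjamini-Hochberg adjustment over all of them, threshold 0.05) and the test was tested on simulated data. Members and lists were chosen with earlier results of these data known. Genes named are all members, 24 genes of the wider lists fixed by name, Ctnnb1, Eno1b, Elob, Arnt2, Arntl, Fbp2 and single marker genes. Those after Ctnnb1 were chosen after their values were seen. A gene of the wider lists is not reported here. Alternatives changed the pseudocount, filter, scaling, library weights, sex and replicate terms, and left out each library. Near copies were sought with BLAST+ 2.17.0 in GENCODE transcripts (95% identity over 300 bases). Other software was matplotlib 3.10.9, NumPy 2.4.6, pandas 2.3.3 and Python 3.11.15.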

Additional observations from a re-analysis of the deposited data

How the results depend on the processing

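Over the 15 alternatives, 0 members passed the threshold in any, so the count of 0 did not change. Of 473 member values under these alternatives, 455 kept their direction and their side of the threshold and 18 changed sign, all of them within 9 members and with no call lost or gained; 23 members kept their direction in all. The counts over all genes, 0 higher and 2 lower, were 1 and 2 with a pseudocount of 0.1, 1 and 0 with a pseudocount of 5, 0 and 0 without a filter, 20 and 7 with array weights, and 0 and 0 with sex as a covariate. Leaving out each library in turn gave 0 to 2 higher and 0 to 3 lower. With the replicate number as a block, 0 were higher and 0 lower. Deviations of same-numbered libraries had correlations of -0.292, 0.333 and 0.325, and those of pairs with unlike numbers ran from -0.487 to 0.212. Replicates 2 and 3 were thus each most alike across groups, and replicate 1 was not. The numbers were not taken as pairs, because the labels do not say that they mark a shared animal, litter or day. The estimate of array weights stopped before its tolerance was met. The median of the glycolytic enzymes was 0.167 with array weights, against 0.274. With array weights the log2 difference was -0.099 for Pfkfb3, 0.090 for Pgam1, -0.14 for Ankrd37 and 0.43 for Khk, each with the opposite sign to the reported one, and with the sex covariate it was -0.18 for G6pc. Leaving out each library in turn, log2 differences ran from -0.41 to 0.024 for Pfkm, from -0.093 to 0.86 for Pfkfb3, from -0.15 to 0.11 for Pgam1, from -0.11 to 0.22 for Car9, from -0.35 to 0.0049 for P4ha1, from -0.40 to 0.25 for Khk, from -0.14 to 0.86 for Pck1 and from -0.45 to 0.92 for G6pc. The cause of each was not tested. Without mutant replicate 3 the signs of Pfkm, Pfkfb3, Pgam1, Pck1 and G6pc turned. The planned count-based test was not run, because the table holds no counts. Absolute depth is unknown, and low members such as Ldhb and P4ha1 rest on fewer reads than abundant members of like length.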
